A study of Rattus norvegicus with 24 samples.

Results

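The lungs of control rats were compared across the time course of a pulmonary hypertension study: 4 PBS-injected rats taken at Week 3 (day 21) against 4 PBS-injected rats taken at Week 1 (day 7). These 8 libraries were chosen by the treatment and time in the sample labels, out of 24 libraries in the series. In the whole study, male Sprague-Dawley rats of wild-type genotype received either PBS buffer or monocrotaline (MCT, 50 mg/kg) by intraperitoneal injection. MCT is a plant toxin that injures the lung circulation and is widely used to bring on pulmonary hypertension in rats. At Weeks 1, 2 and 3, 4 rats of each treatment were taken, and tissue from the PBS-perfused lungs of each rat gave 1 poly-A RNA library. Perfusion rinses the vessels of blood. The 4 PBS rats of Week 2 (day 14) and the MCT rats of Weeks 1 and 3 were used here for orientation. Each PBS rat was used at only 1 week, so the comparison is between different animals. Rats of Week 3 were also older, had been housed longer and were taken on another day, and these differences cannot be told apart. The tissue was whole lung, so a lower level of a cell type's transcripts can stand for fewer cells of that type or for less RNA per cell, and these cannot be told apart.

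Among the Week 1 libraries 2 stood apart, and fold changes, list medians and list counts by p below are given with all 8 libraries and with the 6 that are left without them. PBS Week 1 rats 1 and 3 had 19804731 and 20509197 counts, whereas rats 2 and 4 of Week 1 had 30641953 and 32642625, and the Week 3 rats had 28357609 to 31082646. At least 10 counts were found for 14706 genes in Week 1 rat 1 and 12491 genes in Week 1 rat 3, against 15614 to 16096 in the Week 3 rats. The log2 deviations of genes from their median over all PBS rats had an SD of 1.098 and 1.31 in these rats, against 0.359 to 0.541 in the Week 3 rats. The deviations also followed transcript length in Week 1, with a rank correlation across genes (which are not independent replicates) of -0.53, -0.24, 0.27 and -0.19 in rats 1 to 4, against 0.057 to 0.137 in the Week 3 rats. Rats 2 and 4 thus ran against length as well, and this trend is also part of the comparison with 6 libraries. Among those 6, Week 1 rat 2 alone gave 71.1% of the sum of squared scores on the first principal component. Markers of lung cells were high in all 8 libraries, as the tissue label says. Sftpa1, which encodes the surfactant protein A of alveolar type 2 cells, was at 9051, 6009, 6337 and 5205 CPM (counts per 1000000 counts of a library) in Week 1 rats 1 to 4 and at 6174, 4776, 6772 and 5621 CPM in Week 3 rats 1 to 4. The groups overlapped.

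**Figure D1:**
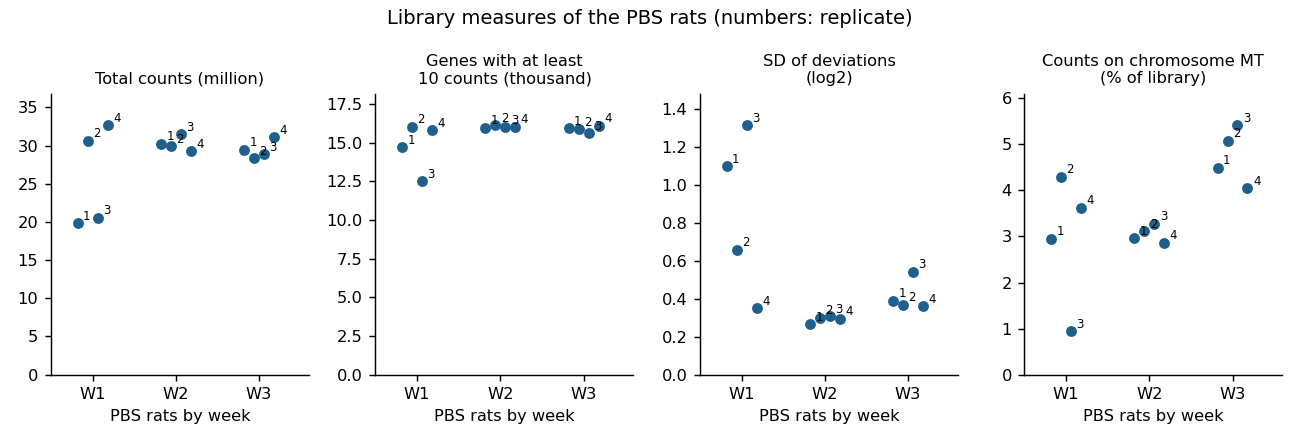
Total counts, genes with at least 10 counts, SD of the log2 deviations and share of counts on the mitochondrial chromosome in the 12 PBS rats by week. Each point is a rat with its replicate number, and each y axis starts at 0. Week 1 rats 1 and 3 stand apart in depth and in the SD, at 1.098 and 1.31 against 0.359 to 0.541 at Week 3.

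The first question was how many genes differed between control rats of the same treatment taken 2 weeks apart. A gene was called at a Benjamini-Hochberg adjusted p below 0.05 and a fold change above 1.5. With all 8 libraries, edgeR's quasi-likelihood test called 0 of 15656 genes (0% in each direction), and the lowest adjusted p over all genes was 0.907. Without Week 1 rats 1 and 3 it called 0 of 16593 genes, with a lowest adjusted p of 0.221. Limma-voom with quality weights also called 0 genes in both sets. At an unadjusted p below 0.05 and the same fold, edgeR counted 262 higher (1.67%) and 517 lower (3.30%) genes with 8 libraries, and 1098 higher (6.62%) and 1102 lower (6.64%) with 6. DESeq2 called 13 genes higher (0.0830%) and 25 lower (0.160%) with 8 libraries, and 349 (2.10%) and 303 (1.83%) with 6. A fit that estimated the spread from all 24 libraries called 190 higher (1.10%) and 335 lower (1.95%), and a fit of 22 libraries called 892 (4.97%) and 972 (5.42%). Both take 1 spread per gene for all groups, although PBS Week 1 rats differed most from each other. Between pairs of rats of a group, the chi-square of the counts per degree of freedom was 152 to 794 at PBS Week 1 and 23.6 to 92.7 in the other groups. These fits can therefore understate the Week 1 spread and call too many genes. By contrast, edgeR's quasi-likelihood test of the MCT rats alone called 1554 genes higher and 1246 lower between Week 1 and Week 3. All folds given below are therefore sizes with their standard errors and not calls of that test, and a gene is said to have risen or fallen only where another named fit or the MCT comparison called it. A pair of values in parentheses after a gene is its log2 fold change, Week 3 over Week 1, with its standard error, first with 8 and then with 6 libraries. As a plain measure that does not need a model, genes were also counted where every Week 3 rat lay above every Week 1 rat (568 of 15656, 3.63%) or below (299, 1.91%). Only 3275 of 32883 genes in the table had a symbol, so the gene groups below cover named genes only. The symbols came from a supplementary table of the study, whose tables of rat genes list genes that differed between MCT and PBS rats. A gene could thus be named because its PBS level in these same libraries stood out at a single week. List counts are therefore descriptions, and the shares of named genes are their nearer background. Of the named genes tested, 5.35% lay above and 3.73% below without overlap, and at unadjusted p below 0.05 and 1.5-fold 4.52% were higher and 6.26% lower with 8 libraries and 12.7% and 8.85% with 6.

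Of the 31 gene lists, that of red blood cells and their precursors had the largest median difference with 8 libraries, with lower levels at Week 3. Haemoglobin is built from alpha and beta globin chains around haem. Erythroid precursors in the bone marrow make its mRNA, and young red cells (reticulocytes) still carry it in the blood. Lung epithelium can also make some globin. The alpha globin gene Hba-a1 (chromosome 10, 15602794 to 15603649 in the Rnor_6.0 coordinates of the deposited table, minus strand) was at 3523, 3616, 1737 and 2321 CPM in Week 1 rats 1 to 4, at 416, 1031, 1034 and 594 CPM in Week 2 rats and at 169.5, 368, 29.2 and 93.2 CPM in Week 3 rats. All Week 3 rats lay below all Week 2 rats, which lay below all Week 1 rats. The mean was 2799 ± 922 CPM (SD, n = 4) at Week 1 and 165 ± 147 CPM (SD, n = 4) at Week 3. The log2 fold change was -4.20 ± 0.75 (SE, edgeR unadjusted p = 0.000297, adjusted p = 0.907) with 8 libraries and -4.15 ± 0.75 with 6 (adjusted p = 0.221). DESeq2 and the fit of all 24 libraries called this gene lower.

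The beta globin gene Hbb (chromosome 1, 168971274 to 168972725, minus strand) gave the same order of weeks in most rats. It was at 4096, 1381, 1964 and 1635 CPM at Week 1, 211, 659, 534 and 334 CPM at Week 2 and 114, 288, 44.5 and 42.1 CPM at Week 3. The Week 1 and Week 3 groups did not overlap, while Week 3 rat 2 lay above Week 2 rat 1. The log2 fold change was -4.37 ± 0.78 with 8 libraries and -3.62 ± 0.69 with 6. Hba-a2, the second alpha globin gene, was chosen after its values had been seen. It was at 1730.0, 1596, 661 and 938 CPM at Week 1 and 64.9, 159, 4.71 and 33.3 CPM at Week 3, again without overlap (-4.36 ± 0.94 and -4.26 ± 0.95). The alpha globin genes are near-identical copies, as are the beta globin genes, so the split of reads between copies is uncertain and only their joint level is well measured. The share of all counts taken by the 6 haemoglobin genes was 0.830 ± 0.285% at Week 1 and 0.04996 ± 0.0463% at Week 3 (SD, n = 4 each). An exact two-sided permutation test gave p = 0.0286 for this share, the smallest value that 4 against 4 rats allow, and 0.171 after adjustment over the 6 library measures tested. Without Week 1 rats 1 and 3 the difference was -0.709 percentage points instead of -0.780, with p = 0.0667, the smallest that 4 against 2 rats allow in the exact permutation test.

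Genes that act in haem and haemoglobin production showed the difference as well. The following genes, up to and including Pf4, were named after their values had been seen. Alas2 encodes the erythroid form of the first enzyme of haem synthesis. Its level was 36.5, 53.2, 114 and 44.5 CPM at Week 1, 6.44, 21.4, 19.4 and 12.5 CPM at Week 2 and 3.498, 8.25, 0.554 and 0.804 CPM at Week 3. Every Week 3 rat lay below every Week 1 rat, and the log2 fold change was -4.29 ± 0.87 with 8 libraries and -3.89 ± 0.85 with 6. Ahsp, a chaperone that binds free alpha globin, was at 29.7, 8.58, 32.4 and 5.94 CPM at Week 1 and 0.407, 1.06, 1.90 and 1.48 CPM at Week 3. The groups did not overlap, although Week 1 rats 1 and 3 were the highest, and the log2 fold change was -4.10 ± 0.77 with 8 libraries and -2.57 ± 0.57 without them. Bpgm makes the bisphosphoglycerate that lowers the oxygen affinity of haemoglobin. It was at 63.1, 57.4, 107 and 59.7 CPM at Week 1, 29.2, 38.7, 34.98 and 39.2 CPM at Week 2 and 28.6, 26.8, 17.9 and 27.99 CPM at Week 3, and the 3 weeks did not overlap in that order. Its log2 fold change was -1.58 ± 0.28 and -1.21 ± 0.22. Tmcc2, which is strongly expressed in erythroid cells, was at 221, 332, 225 and 221 CPM at Week 1 and 162, 147, 156 and 162 CPM at Week 3, without overlap (-0.75 ± 0.21 and -0.81 ± 0.18).

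Of 28 genes listed for haemoglobin and erythroid cells, 23 had a symbol in the table and all 23 were tested. Their median log2 fold change was -1.74 with 8 libraries and -1.02 with 6, against -0.03 and 0.01 over all genes tested. With 8 libraries, 13 of the 23 lay below every Week 1 rat in all Week 3 rats, and 0 lay above. Of all genes 1.91% lay below, and of named genes 3.73%. With 6 libraries it was 15 of the 23 (2496 of all 16593 genes). At unadjusted p below 0.05 and 1.5-fold, 13 were lower and 0 higher in either set. Of all genes 3.30% and 6.64% were lower, and of named genes 6.26% and 8.85%. DESeq2 called 10 of them lower with 8 libraries (background 0.160%) and 12 with 6 (1.83%). The fit of all 24 libraries called 13 lower (1.95% of all genes) and the fit of 22 called 14 (5.42%). Of the 23, 3 were ordered without overlap over all 3 weeks, which 0.0830% of all genes were in this direction and 0.0703% in the other. For 10 of the 23 members the rats of Weeks 1 and 3 overlapped. Leaving out each of the 8 libraries in turn gave medians of -2.01 to -1.35 with 11 to 15 members lower.

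**Figure D2:**
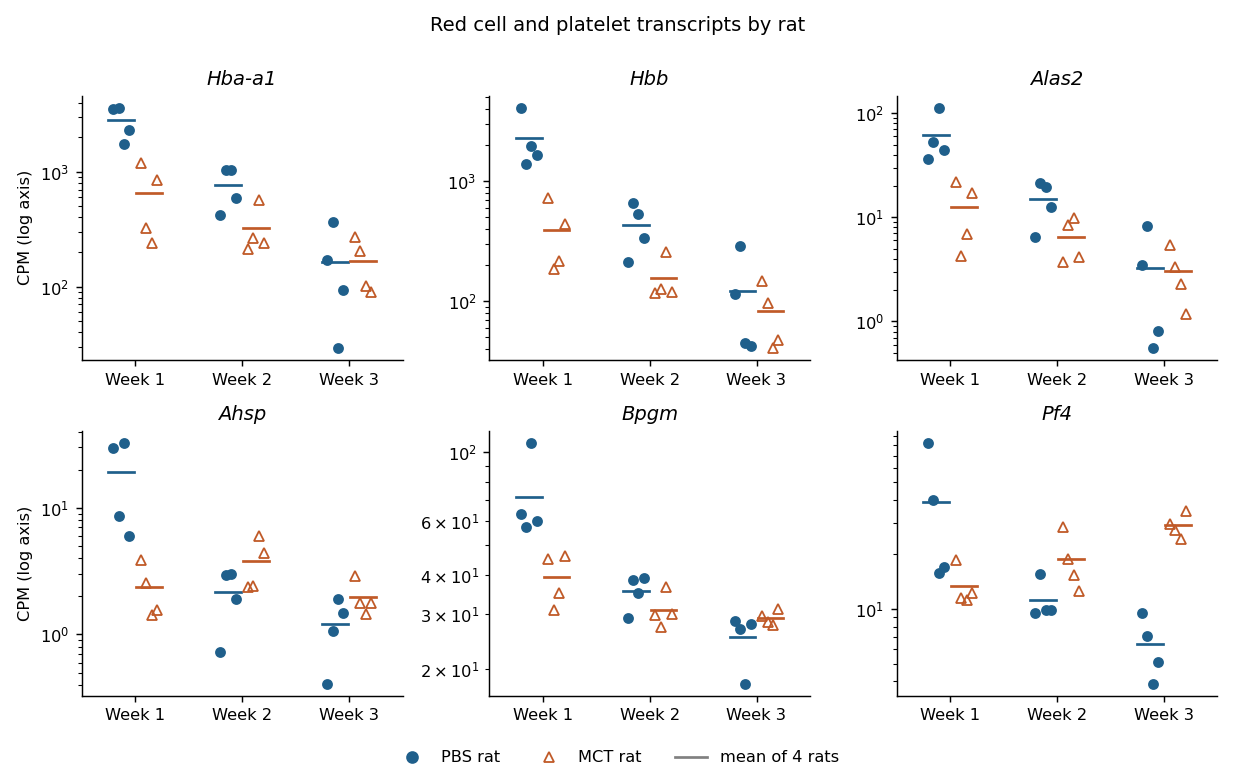
CPM of erythroid genes and of Pf4 by week, on log axes. Filled circles are PBS rats, open triangles are MCT rats and short lines are the means of 4 rats. The PBS rats started above the MCT rats at Week 1 for Hba-a1, and ended at 29.2 to 368 CPM at Week 3.

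Erythroid transcripts were also lower at Week 3 than at Week 1 in MCT rats, from a lower start. Hba-a1 was at 1180.4, 326, 241 and 853 CPM in MCT rats of Week 1 and at 270.4, 205, 101 and 90.5 CPM at Week 3, and it fell by 2.01 ± 0.51 on the log2 scale (edgeR adjusted p = 0.0153). Hbb fell by 2.28 ± 0.50 (adjusted p = 0.00746), and Tmcc2 fell as well, while Bpgm gave -0.47 ± 0.15 (adjusted p = 0.0361, under the 1.5-fold limit) and Ahsp -0.29 ± 0.40 (adjusted p = 0.624). Of the 23 members, 9 fell and 0 rose in MCT rats. Of all genes 7.72% fell there, and of 3274 named genes 692 fell and 384 rose. The summed level of the 23 genes was 6634 to 12923 CPM in PBS rats of Week 1, 1559 to 3379 CPM at Week 2 and 568 to 1632 CPM at Week 3. In MCT rats it was 1155 to 3543 CPM at Week 1 and 567 to 1051 CPM at Week 3. Whether the change differed between MCT and PBS rats was tested as a difference of changes, judged by adjusted p below 0.05 without a fold limit. With 16 libraries 0 of the 23 genes passed (0.268% of all genes passed upward and 0.607% downward). With 14 libraries 3 passed upward, where 6.06% of all genes did.

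GATA1, the main transcription factor of red cell development, binds the letters AGATAA and TGATAA. The RefSeq promoter windows of GRCr8, from 250 bases before to 50 after the start of each gene, were searched for these letters on both strands. A match was found in 7 of 18 erythroid members that had a window (38.9%) and in 5472 of 27457 windows over all symbols (19.9%). This is a description of letters and not of binding. The windows of an alpha globin gene and of Alas2, the pair of members that stand for the globin and the haem branch, are shown with the match in capitals.
Hba-a1, chr10:15842531-15842830 (- strand): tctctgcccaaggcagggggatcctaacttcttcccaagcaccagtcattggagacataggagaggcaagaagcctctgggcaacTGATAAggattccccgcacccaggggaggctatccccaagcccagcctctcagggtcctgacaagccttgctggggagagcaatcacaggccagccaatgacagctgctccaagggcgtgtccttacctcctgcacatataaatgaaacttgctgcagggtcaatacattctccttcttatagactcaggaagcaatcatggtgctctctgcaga
Alas2, chrX:22895200-22895499 (+ strand): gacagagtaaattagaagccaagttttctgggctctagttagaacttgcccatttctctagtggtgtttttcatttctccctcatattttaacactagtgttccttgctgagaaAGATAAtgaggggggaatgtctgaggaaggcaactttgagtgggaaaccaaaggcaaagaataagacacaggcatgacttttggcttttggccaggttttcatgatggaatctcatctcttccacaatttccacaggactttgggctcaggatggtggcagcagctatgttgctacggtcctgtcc

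Platelets share the blood with red cells, and their transcripts were examined next. Pf4 encodes platelet factor 4, a chemokine stored in platelet granules. It was at 82.1, 39.7, 15.9 and 17.2 CPM at Week 1, 9.51, 15.7, 9.84 and 9.87 CPM at Week 2 and 9.47, 7.12, 3.88 and 5.12 CPM at Week 3. Every Week 3 rat lay below every Week 1 rat, and the log2 fold change was -2.78 ± 0.65 with 8 libraries and -2.14 ± 0.41 with 6. DESeq2 called Pf4 lower in both sets. In MCT rats Pf4 went the other way, from 18.6, 11.5, 11.3 and 12.2 CPM at Week 1 to 29.4, 27.3, 24.4 and 34.9 CPM at Week 3. It rose by 1.07 ± 0.19 on the log2 scale there (edgeR adjusted p = 0.00274), and the difference of the changes was 3.80 ± 0.69 with 16 libraries (adjusted p = 0.0249) and 3.22 ± 0.45 with 14 (adjusted p = 0.00215). Of 12 listed platelet genes only 6 had a symbol in the table. Of these 6, 3 were lower and 1 was higher at unadjusted p below 0.05 and 1.5-fold with 8 libraries (3.30% and 1.67% of all genes), and 2 were lower and 0 higher with 6 (6.64% and 6.62%). Of named genes, 6.26% were lower and 4.52% higher with 8 libraries, and 8.85% and 12.7% with 6. Their median was -1.22 with 8 libraries and -0.71 with 6.

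The second group was made up of interferon-stimulated genes, which were higher in Week 3 control lungs. Interferons are released by cells that sense viral or other foreign nucleic acid. They act through cell-surface receptors and transcription factors, among them the IRF family, and the genes they switch on include sensors, antiviral effectors and guanylate-binding proteins. In lung such genes have a resting level in epithelium, endothelium and immune cells. All genes of this list are named after their values had been seen. Slfn4, a Schlafen family gene induced by interferon in mouse myeloid cells, was at 38.6, 95.5, 184 and 231 CPM in Week 1 rats 1 to 4, 189, 308, 204 and 197 CPM at Week 2 and 346, 542, 1285 and 1685 CPM at Week 3. All Week 3 rats lay above all Week 1 rats, with Week 3 rats 3 and 4 far above the rest. Its log2 fold change was 2.77 ± 0.63 with 8 libraries and 2.55 ± 0.69 with 6, and DESeq2 called it higher in both. Schlafen genes have near copies, so its level is uncertain where reads match more than 1 of them. Phf11 was at 19.9, 15.9, 25.8 and 19.1 CPM at Week 1, 23.98, 19.4, 9.21 and 24.8 CPM at Week 2 and 44.4, 46.6, 57.6 and 81.2 CPM at Week 3. Week 3 did not overlap with either earlier week, and its log2 fold change was 1.42 ± 0.28 and 1.71 ± 0.29 (called higher by DESeq2 in both sets).

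Irf7, Mx1 and Isg15 overlapped between the weeks. Irf7, the factor that amplifies the type I response, was at 54.4, 43.2, 56.9 and 101 CPM at Week 1 and 71.6, 211, 208 and 518 CPM at Week 3. Week 3 rat 1 overlapped with Week 1 and rat 4 was the highest (1.89 ± 0.54 and 1.79 ± 0.70). Mx1, a dynamin-like GTPase that blocks virus replication, was at 21.0, 21.2, 79.8 and 52.8 CPM at Week 1 and 64.0, 145, 123 and 404 CPM at Week 3, with an overlap of Week 3 rat 1 and Week 1 rat 3 (2.02 ± 0.61 and 2.29 ± 0.73). Isg15, a ubiquitin-like modifier, did not separate the weeks, with 51.1, 21.8, 26.0 and 16.4 CPM at Week 1 and 12.2, 27.6, 18.9 and 59.5 CPM at Week 3.

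Genes that respond strongly to interferon gamma were looked at as well. Nlrc5, the activator of MHC class I genes, was at 2.52, 14.0, 16.6 and 23.1 CPM at Week 1 and 39.6, 45.7, 36.6 and 65.9 CPM at Week 3, without overlap (1.70 ± 0.52 and 1.33 ± 0.32). Gbp5, a guanylate-binding protein that takes part in inflammasome assembly, was at 26.2, 35.8, 52.3 and 48.6 CPM and 77.5, 66.0, 61.0 and 104 CPM. Igtp, an immunity-related GTPase, was at 38.6, 28.7, 62.4 and 50.4 CPM and 85.4, 81.3, 90.3 and 139 CPM. Both genes were separated between the weeks, as was Trim21, a cytosolic antibody receptor, at 35.6, 51.5, 72.1 and 85.0 CPM and 99.8, 122, 116 and 136 CPM. B2m, the light chain of MHC class I, belongs to the antigen presentation list, was also chosen after its values had been seen, and was at 3054, 1664, 1174 and 2557 CPM at Week 1 and 3938, 3201, 3246 and 3816 CPM at Week 3, without overlap (0.61 ± 0.38 and 0.75 ± 0.21).

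Of 53 listed interferon-stimulated genes, 52 were in the table and tested. The median log2 fold change was 0.86 with 8 libraries and 1.06 with 6, against -0.03 and 0.01 over all genes, and 48 and 50 of the 52 were positive. Every Week 3 rat lay above every Week 1 rat for 12 members with 8 libraries (3.63% of all genes and 5.35% of named genes). With 6 libraries this held for 25 (14.6% of all genes and 729 of 3275 named genes), and 0 lay below in either set. At unadjusted p below 0.05 and 1.5-fold 32 were higher with 8 libraries (1.67% of all genes and 4.52% of named genes) and 37 with 6 (6.62% and 12.7%), and 0 were lower in either. DESeq2 called 2 higher with 8 libraries (background 0.0830%) and 21 with 6 (2.10%), and the fits of 24 and 22 libraries called 23 and 32 (1.10% and 4.97% of all genes). The counts depended on single rats. Without Week 3 rat 4, 15 were higher at unadjusted p, without Week 1 rat 2, 19, and without Week 1 rat 3, 43. With Week 1 rats 1 and 3 already out, leaving out Week 1 rat 2 gave 13 and leaving out Week 3 rat 1 gave 46. The median stayed between 0.69 and 1.12 when each of the 8 libraries was left out in turn.

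**Figure D3:**
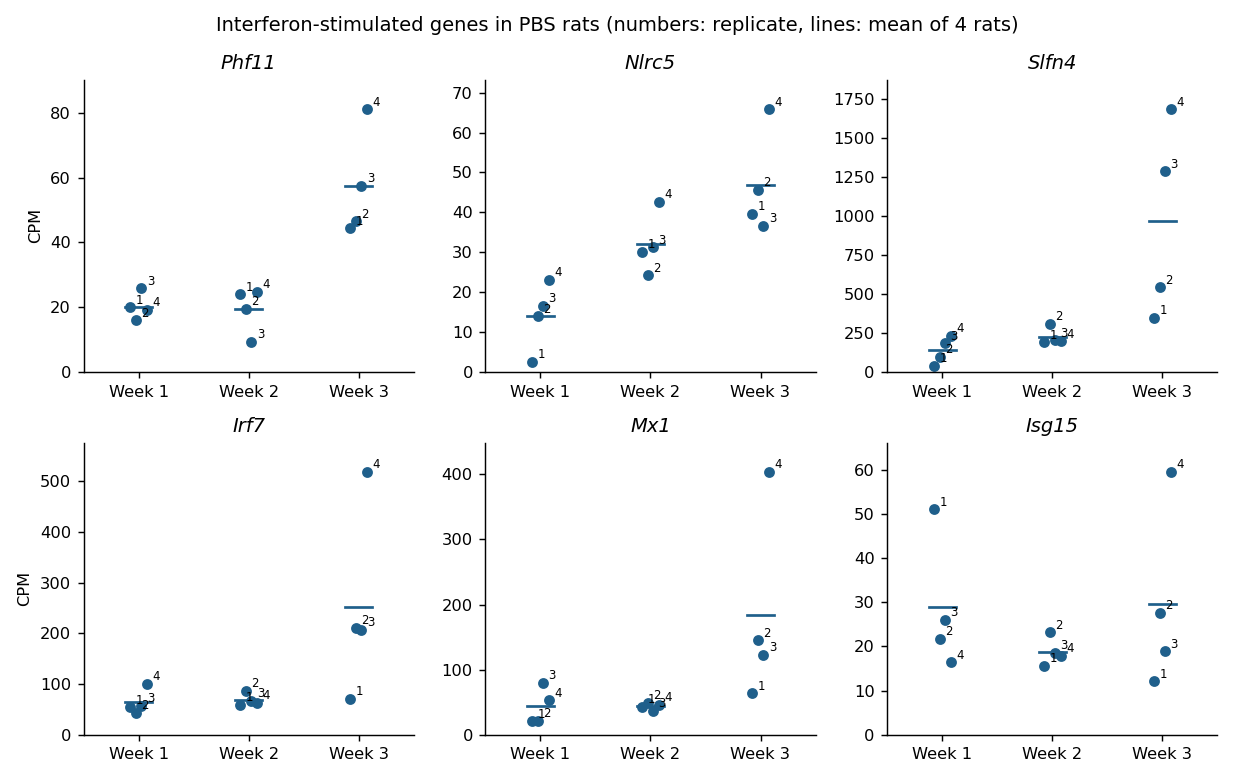
CPM of 6 interferon-stimulated genes in PBS rats by week, on axes that start at 0. Each point is a rat with its replicate number, and short lines are the means of 4 rats. Slfn4 was at 346 to 1685 CPM in PBS rats of Week 3, above the 38.6 to 231 CPM of Week 1.

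The Week 3 rats differed among themselves in this list. Rat 4 was the highest of the 4 in 47 of 52 genes and rat 1 was the lowest in 43. On the scale of log2(CPM + 1) minus the mean of the 12 PBS rats, the list medians of Week 3 rats 1 to 4 were -0.03, 0.62, 0.54 and 1.23. Week 2 rats lay between -0.33 and -0.11, and Week 1 rats at -0.85, -0.66, 0.28 and -0.16. Week 1 rat 3, 1 of the 2 shallow libraries, therefore lay above Week 3 rat 1. No member of this list was ordered without overlap over all 3 weeks. In MCT rats the median fold change from Week 1 to Week 3 was -0.16, with 1 member risen and 10 fallen (9.63% and 7.72% of all genes). Of 3274 named genes, 384 rose and 692 fell there, with a median of -0.17. The fallen members were thus near the share of named genes. The difference of the changes passed for 5 of 52 members with 16 libraries, all with the higher change in PBS rats (background 0.607%), and for 21 with 14 libraries (background 6.37%). Named genes made up 97 of the 102 genes that passed in this direction with 16 libraries, and 682 of 1121 with 14.

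The interferon-stimulated response element, to which IRF factors bind, has a core of GAAA and GAAA, separated by any 2 bases. This core, on both strands, was found in the windows of 27 of 42 members that had one (64.3%) and in 1131 of 27457 windows over all symbols (4.12%). The list was made of genes known to respond to interferon, so a high share is part of its definition. The element was found in 6 of 10 members whose weeks did not overlap and in 21 of 32 of the others. Windows of 3 separated members are printed, with matches in capitals (on the other strand the core reads TTTC, any 2 bases and TTTC).
Gbp5, chr2:233910749-233911048 (+ strand): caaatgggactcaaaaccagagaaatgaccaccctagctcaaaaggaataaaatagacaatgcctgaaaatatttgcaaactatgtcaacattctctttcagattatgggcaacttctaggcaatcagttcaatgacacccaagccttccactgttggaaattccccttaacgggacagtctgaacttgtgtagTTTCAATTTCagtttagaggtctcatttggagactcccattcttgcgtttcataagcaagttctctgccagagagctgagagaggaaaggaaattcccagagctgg
Igtp, chr10:42874797-42875096 (+ strand): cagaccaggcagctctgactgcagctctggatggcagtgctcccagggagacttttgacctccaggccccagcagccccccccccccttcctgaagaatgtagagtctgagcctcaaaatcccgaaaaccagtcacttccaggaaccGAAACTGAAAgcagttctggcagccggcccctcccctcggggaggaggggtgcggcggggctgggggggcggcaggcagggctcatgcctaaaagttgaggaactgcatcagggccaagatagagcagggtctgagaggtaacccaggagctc
Trim21, chr1:166399322-166399621 (- strand): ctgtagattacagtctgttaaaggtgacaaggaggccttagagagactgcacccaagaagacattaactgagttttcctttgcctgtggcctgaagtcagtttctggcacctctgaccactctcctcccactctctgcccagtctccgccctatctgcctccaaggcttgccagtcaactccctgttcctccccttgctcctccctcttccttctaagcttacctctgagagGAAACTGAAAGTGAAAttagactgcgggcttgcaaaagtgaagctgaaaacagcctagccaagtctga

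**Figure D4:**
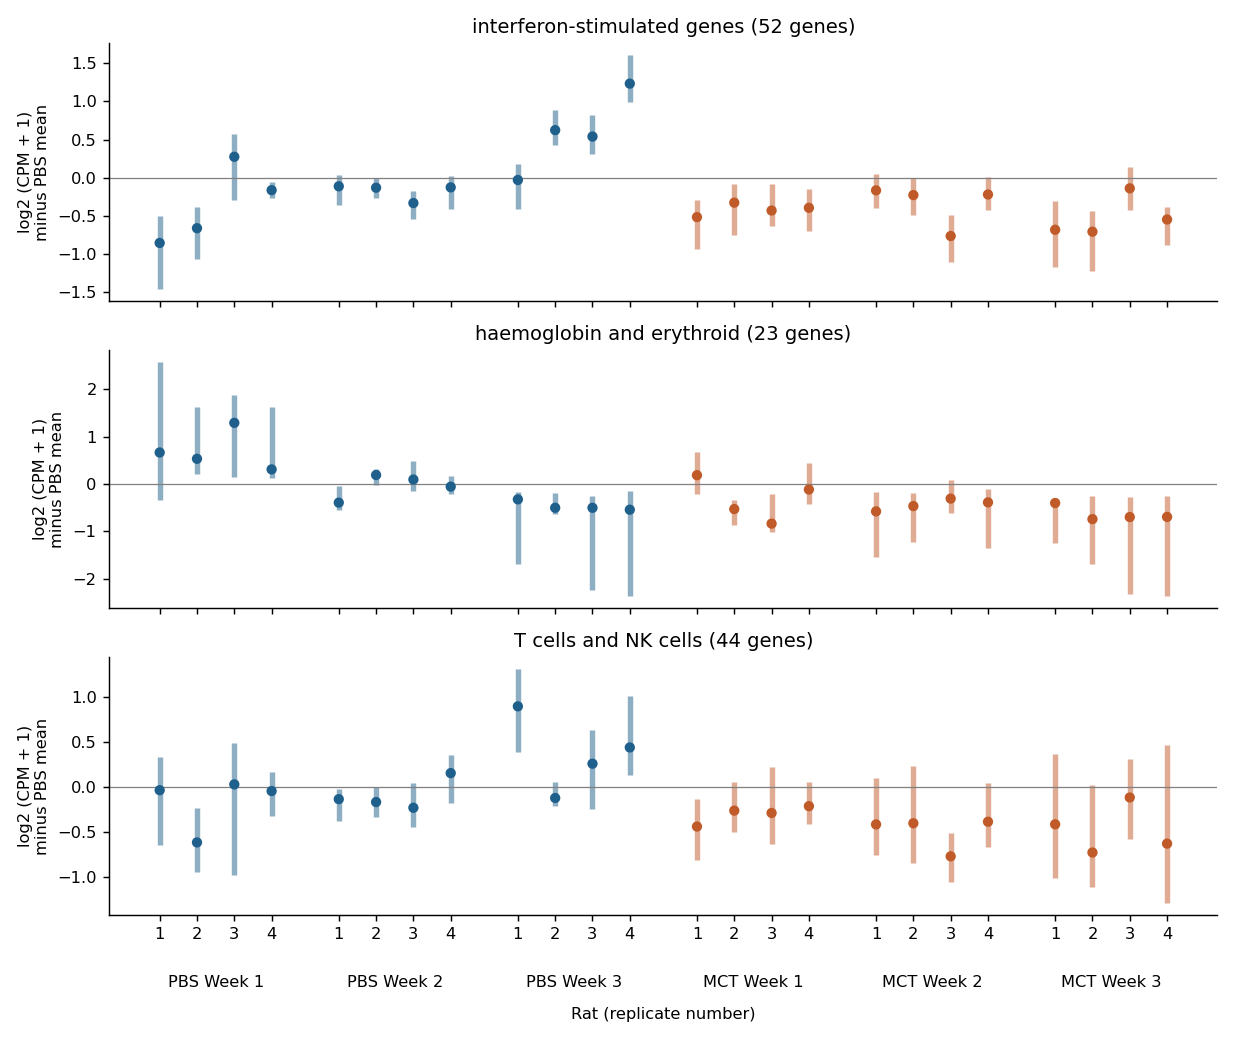
Median (point) and quartiles (bar) over the members of 3 gene lists in each of the 24 rats, as log2(CPM + 1) minus the mean of the 12 PBS rats. For interferon-stimulated genes the PBS Week 3 medians run from -0.03 in rat 1 to 1.23 in rat 4, and for erythroid genes all PBS Week 3 medians lie at -0.54 to -0.32, below all Week 1 medians.

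Transcripts of T cells and natural killer (NK) cells were higher at Week 3 in part. These lymphocytes lie in the lung interstitium and around the airways, and NK cells are an early source of interferon gamma. Klrd1 (CD94), a receptor subunit of NK cells, was at 11.2, 5.87, 4.78 and 13.9 CPM at Week 1, 10.2, 10.3, 10.1 and 12.3 CPM at Week 2 and 38.9, 19.96, 37.5 and 29.0 CPM at Week 3. All Week 3 rats lay above all rats of both earlier weeks, and the log2 fold change was 1.69 ± 0.45 and 1.66 ± 0.42. Il2rb, a signalling chain of the interleukin-2 receptor, was at 20.1, 21.8, 27.3 and 40.9 CPM at Week 1 and 91.6, 47.0, 72.1 and 107 CPM at Week 3, without overlap (1.45 ± 0.32 and 1.33 ± 0.38). DESeq2 called Il2rb higher in both sets. Gzma, a granzyme of cytotoxic cells, was at 18.6, 5.22, 9.07 and 11.7 CPM and 37.9, 11.1, 21.9 and 50.3 CPM, where Week 3 rat 2 lay inside the Week 1 range. These 3 genes were chosen after their values had been seen. Cd4, the coreceptor of helper T cells, overlapped, with 30.8, 28.4, 34.5 and 31.5 CPM at Week 1 and 54.4, 32.83, 27.2 and 53.0 CPM at Week 3 (0.32 ± 0.28 and 0.48 ± 0.30).

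Of 50 listed T and NK cell genes, 44 were tested, with a median log2 fold change of 0.50 with 8 libraries and 0.89 with 6. At unadjusted p below 0.05 and 1.5-fold, 10 were higher with 8 libraries (1.67% of all genes and 4.52% of named genes) and 17 with 6 (6.62% and 12.7%), and 0 were lower. With 8 libraries the weeks did not overlap for 3 members, all higher at Week 3, a share near the 5.35% of named genes. With 6 libraries 14 lay above and 1 below (2427 and 2496 of all 16593 genes). DESeq2 called 1 higher with 8 libraries (0.0830% of all genes) and 9 with 6 (2.10%). Rat 1 was the highest Week 3 rat in 29 of the 44 genes and rat 2 the lowest in 26, an order unlike that of the interferon-stimulated genes. Leaving out single libraries gave 4 to 12 higher genes with 8 libraries and 4 to 24 with 6. In MCT rats 6 members rose and 6 fell (9.63% and 7.72% of all genes, 384 and 692 of 3274 named genes). The change of Il2rb differed between MCT and PBS rats by -2.07 ± 0.42 (edgeR adjusted p = 0.0367) with 16 libraries and by -1.91 ± 0.46 (adjusted p = 0.0202) with 14, with 25.8, 34.7, 45.6 and 41.1 CPM in MCT rats of Week 1 and 20.8, 18.2, 38.5 and 23.7 CPM at Week 3.

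B cell and plasma cell genes leaned higher at Week 3, by few members. Ms4a1 (CD20) was at 10.1, 8.97, 22.8 and 14.3 CPM at Week 1 and 19.1, 15.97, 12.6 and 14.2 CPM at Week 3, and the groups overlapped. Jchain, which joins the subunits of secreted IgA and IgM and marks plasma cells, was at 132, 26.0, 58.6 and 23.9 CPM at Week 1 and 124, 276, 49.1 and 94.5 CPM at Week 3 (0.99 ± 0.70 and 2.45 ± 0.62). Week 1 rats 1 and 3 lay within the Week 3 range, and rats 2 and 4 lay below it. Over 11 tested genes of the list the median was 0.18 with 8 libraries and 0.45 with 6, and 7 and 9 were positive. Of the 11, 3 were higher and 0 lower at unadjusted p below 0.05 and 1.5-fold in either set. Of all genes 1.67% and 6.62% were higher, and of named genes 4.52% and 12.7%.

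Among myeloid markers, S100a9, a calcium-binding protein of neutrophils, was at 396, 56.0, 2.24 and 53.5 CPM at Week 1 and 54.0, 25.6, 22.4 and 45.2 CPM at Week 3. The Week 1 range spanned the Week 3 range on both sides, set by rats 1 and 3, and the log2 fold change was -2.05 ± 1.15 with them and -0.57 ± 0.34 without them. Cd68 of macrophages was at 58.2, 52.8, 12.9 and 46.9 CPM and 55.3, 43.0, 30.8 and 58.8 CPM and overlapped. Over 37 tested macrophage and monocyte genes the median was -0.0027 with 8 libraries and 0.35 with 6, and at unadjusted p below 0.05 and 1.5-fold 1 was higher and 0 lower with 8 libraries, but 7 were higher and 3 lower with 6 (6.62% and 6.64% of all genes). Over 10 neutrophil genes the median was -0.39 with 8 libraries and 0.19 with 6, with 0 higher or lower with 8 and 1 higher with 6. For both lists the shares of named genes were 4.52% higher and 6.26% lower with 8 libraries, and 12.7% and 8.85% with 6.

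Part of the transcripts of the mitochondrial genome lay higher at Week 3. The genes shown encode subunits of complex I of the respiratory chain. ND4L was at 124, 161, 149 and 173 CPM at Week 1, 169, 166, 181 and 167 CPM at Week 2 and 332, 305, 453 and 238 CPM at Week 3, with no overlap between Week 3 and the earlier weeks. Its log2 fold change was 1.05 ± 0.25 and 1.00 ± 0.27, and DESeq2 called it higher in both sets. ND2 was at 1111, 2536, 412 and 2293 CPM at Week 1 and 3446, 3953, 5093 and 2961 CPM at Week 3, again without overlap (1.21 ± 0.52 and 0.69 ± 0.24). Both were named after their values had been seen. Of 16 tested genes of this genome, 5 were higher and 0 lower at unadjusted p below 0.05 and 1.5-fold with 8 libraries (1.67% of all genes were higher) and 6 and 0 with 6 (6.62%), with medians of 0.72 and 0.44. Of the 6 among them that have a symbol, 4 were higher in either set (4.52% and 12.7% of named genes). For 3 of these all Week 3 rats lay above all Week 1 rats in either set (5.35% of named genes with 8 libraries and 729 of 3275 with 6). Their medians were 1.02 and 0.67. Leaving out single libraries gave 1 to 5 higher with 8 libraries, and leaving out single Week 3 libraries gave 1 to 4 with 6. The share of all counts on the mitochondrial genome was 2.94, 4.30, 0.942 and 3.62% in Week 1 rats 1 to 4 and 4.05 to 5.41% at Week 3. In an exact two-sided permutation test p was 0.0571 (0.171 adjusted over the 6 library measures), and 0.2 without Week 1 rats 1 and 3 (0.3 adjusted). The lowest shares belonged to those rats, and the part of library quality in this difference was not tested.

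Ribosomal protein transcripts were lower at Week 3, but this rested on few Week 1 rats. Fau, which encodes ribosomal protein S30 fused to a ubiquitin-like protein, was at 878, 361, 146 and 250.3 CPM at Week 1 and 93.4, 125, 34.4 and 68.8 CPM at Week 3. The groups did not overlap (-2.53 ± 0.65 and -1.92 ± 0.41), and DESeq2 called Fau lower in both sets. Rps15 of the small subunit was at 2399, 497, 129 and 467 CPM at Week 1 and 312, 238, 245 and 291 CPM at Week 3, where Week 1 rat 1 was several times higher than any other rat and rat 3 was the lowest of all (-1.92 ± 0.80 and -0.82 ± 0.16). Both were named after their values had been seen. Over 23 identifiers of 21 listed symbols the median was -1.56 with 8 libraries and -0.55 with 6. At unadjusted p below 0.05 and 1.5-fold 9 and 8 were lower (3.30% and 6.64% of all genes, 6.26% and 8.85% of named genes). Without Week 1 rat 1 the median was -0.39 and 2 were lower, and without Week 1 rat 3, 18 were lower. Their summed level was 1887 to 14708 CPM at Week 1 and 2223 to 3392 CPM at Week 3. Ribosomal protein genes have many processed copies in the genome, so single identifiers are uncertain. These are short transcripts, the deviations of Week 1 rats 1, 2 and 4 ran against transcript length (rank correlations -0.53, -0.24 and -0.19) while those of all Week 3 rats ran with it (0.057 to 0.137), and the part of this in the result, with 8 or 6 libraries, was not tested.

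Single airway secretory genes lay higher at Week 3, while the leading club cell gene overlapped between the weeks. Club cells line the small airways and make secretoglobin and many enzymes that oxidize foreign compounds. Scgb1a1, their main secreted protein, was at 12513, 7642, 1794 and 9663 CPM at Week 1 and 10378, 13441, 17186 and 12796 CPM at Week 3, which overlapped (0.62 ± 0.57 and 0.64 ± 0.23). Bpifb1, a secreted protein of airway surface fluid, was at 14.3, 3.36, 6.14 and 11.2 CPM at Week 1, 18.3, 21.1, 27.999 and 19.4 CPM at Week 2 and 60.6, 23.2, 19.6 and 95.0 CPM at Week 3. All Week 3 rats lay above all Week 1 rats, with rats 1 and 4 highest (2.34 ± 0.66 and 2.74 ± 0.77). Cyp2a3, a cytochrome P450 of the respiratory lining, was at 9.95, 2.51, 8.78 and 9.07 CPM and 33.8, 26.2, 13.4 and 29.2 CPM, without overlap (1.64 ± 0.51 and 2.13 ± 0.56). The cytochrome P450 gene Cyp2f4 was at 39.6, 22.9, 8.87 and 32.1 CPM and 51.6, 53.5, 53.7 and 97.1 CPM (1.16 ± 0.48 and 1.21 ± 0.31), higher in all Week 3 rats. Bpifb1, Cyp2a3 and Cyp2f4 are among the 4 of 27 tested members of the list whose weeks did not overlap, and they were chosen for that. All 4 lay above, as did 3.63% of all genes and 5.35% of named genes.

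Of 31 listed club and ciliated cell genes, 27 were tested, with a median of 0.11 with 8 libraries and 0.40 with 6. At unadjusted p below 0.05 and 1.5-fold, 5 were higher and 0 lower with 8 libraries (1.67% and 3.30% of all genes), and 9 and 1 with 6 (6.62% and 6.64%). Of named genes, 4.52% were higher and 6.26% lower with 8 libraries, and 12.7% and 8.85% with 6. DESeq2 called 0 with 8 libraries and 7 higher and 1 lower with 6 (2.10% and 1.83% of all genes). In MCT rats Bpifb1 and Cyp2a3 rose as well, by 3.72 ± 0.46 and 1.97 ± 0.65 on the log2 scale (edgeR adjusted p = 0.000325 and 0.0454). Of the list, 12 members rose and 3 fell there (9.63% and 7.72% of all genes, 384 and 692 of 3274 named genes).

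Markers of the gas-exchange surface mostly overlapped. Ager, the receptor that marks alveolar type 1 cells, was at 2741, 2011, 421 and 1756 CPM at Week 1 and 1062, 1011, 946 and 1245 CPM at Week 3. Week 1 rats 1, 2 and 4 lay above all Week 3 rats and rat 3 below them, and the log2 fold change was -0.85 ± 0.52 with 8 libraries and -0.82 ± 0.15 with 6, where DESeq2 called it lower. Over 11 type 1 cell genes the median was 0.03 and 0.15, with 1 higher and 0 lower at unadjusted p below 0.05 and 1.5-fold with 8 libraries and 1 and 2 with 6, and over 12 type 2 cell genes it was 0.06 and 0.05. Among the type 2 cell genes 0 were higher or lower at unadjusted p below 0.05 and 1.5-fold with 8 libraries, and 1 was higher and 1 lower with 6. For both cell types the shares of named genes were 4.52% higher and 6.26% lower with 8 libraries, and 12.7% and 8.85% with 6.

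In the vessel wall, the endothelial marker list had a median near 0, and its shares by unadjusted p were below those of all named genes. Cdh5 (VE-cadherin), which joins endothelial cells, was at 613, 1131, 580.1 and 1101 CPM at Week 1 and 965, 933, 725 and 954 CPM at Week 3 and overlapped. Sema3g, a semaphorin of arterial endothelium, was at 232, 375, 329 and 310.5 CPM and 325, 299.7, 335 and 357 CPM and overlapped too. Tek encodes TIE2, the receptor for angiopoietins, and was chosen after its values had been seen. It was at 267, 369, 605 and 516 CPM at Week 1, 562, 481, 503 and 495 CPM at Week 2 and 675, 698, 798 and 735 CPM at Week 3. Every Week 3 rat lay above every earlier rat (0.67 ± 0.25 and 0.71 ± 0.20). Of 47 tested endothelial genes, 2 were higher and 1 lower at unadjusted p below 0.05 and 1.5-fold with 8 libraries, with a median of 0.03 (4.52% and 6.26% of named genes), and 3 and 4 with 6, with a median of -0.03 (12.7% and 8.85%). Without overlap, 2 lay above and 0 below with 8 libraries (5.35% and 3.73% of named genes). With 6 libraries 8 lay above and 12 below (729 and 495 of 3275 named genes), so the share below was higher than that of named genes.

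Hpgd, the enzyme that inactivates prostaglandins in the lung, was among the genes named whatever their values. It was at 97.7, 72.0, 79.0 and 72.7 CPM at Week 1, 90.3, 91.8, 73.0 and 86.2 CPM at Week 2 and 119, 149.6, 153 and 111 CPM at Week 3. Week 3 lay above Week 1 and Week 2 in every rat, and the log2 fold change was 0.62 ± 0.25 (edgeR unadjusted p = 0.0326) with 8 libraries and 0.89 ± 0.21 with 6, where DESeq2 called it higher. In MCT rats it was already low at Week 1, at 17.8 to 24.7 CPM, and it fell by 1.24 ± 0.21 on the log2 scale to 5.98 to 11.6 CPM at Week 3 (adjusted p = 0.00179). The difference of the changes was -1.89 ± 0.32 with 16 libraries (adjusted p = 0.0184) and -2.11 ± 0.30 with 14 (adjusted p = 0.00222). Tek fell in MCT rats by 1.86 ± 0.14 (adjusted p = 1.91e-05), and its changes differed by -2.56 ± 0.28 with 16 libraries (adjusted p = 0.00098) and -2.57 ± 0.23 with 14 (adjusted p = 0.000253). Sema3g gave a difference of -1.43 ± 0.29 with 16 libraries (adjusted p = 0.0359) and -1.33 ± 0.31 with 14 (adjusted p = 0.0174), with 101, 147, 68.5 and 88.5 CPM in MCT rats of Week 1 and 27.6, 44.8, 44.8 and 41.8 CPM at Week 3. Cyp1a1, a cytochrome P450 induced through the aryl hydrocarbon receptor, was at 155, 182, 114 and 141 CPM in PBS rats of Week 1 and 132, 126, 229 and 198 CPM at Week 3, which overlapped. In MCT rats it was at 336, 148, 136 and 125 CPM at Week 1 and 13.4, 3.43, 2.504 and 2.31 CPM at Week 3, and the difference of the changes was -5.29 ± 0.74 with 16 libraries (adjusted p = 0.00853) and -5.22 ± 0.86 with 14 (adjusted p = 0.00426). In PBS rats Hpgd and Tek lay higher at Week 3 without overlap and Sema3g and Cyp1a1 overlapped, whereas in MCT rats all 4 genes lay lower at Week 3 without overlap. The test of the difference, at adjusted p below 0.05 without a fold limit, passed 147 genes in all with 16 libraries and 2187 with 14. The first count was 13 without MCT Week 1 rat 2 and 2649 without PBS Week 1 rat 3.

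Matrix genes leaned lower as a list, by an amount that depended on single rats. Collagens, elastic fibre proteins and the enzymes that crosslink them are deposited during lung growth. Col1a1 was at 336, 1395, 362 and 502 CPM at Week 1 and 413, 623, 386 and 514 CPM at Week 3 and overlapped, with Week 1 rat 2 far above the rest. Mfap2, a microfibril protein of elastic fibres, was at 48.5, 56.5, 8.92 and 24.97 CPM and 10.8, 22.8, 10.8 and 13.5 CPM, where Week 1 rat 3 was the lowest of all 8 (-1.39 ± 0.57 and -1.47 ± 0.39). Spon2, a secreted matrix protein, was at 129, 189, 54.5 and 115 CPM and 73.3, 91.1, 45.2 and 66.4 CPM (-0.93 ± 0.39 and -1.13 ± 0.28). Mfap2 and Spon2 were chosen after their values had been seen, and their weeks did not overlap once Week 1 rat 3 was left out. Over 63 tested genes the median was -0.26 with 8 libraries and -0.33 with 6. At unadjusted p below 0.05 and 1.5-fold, 0 were higher and 7 lower with 8 libraries (1.67% and 3.30% of all genes), and 4 and 13 with 6 (6.62% and 6.64%). Of named genes, 4.52% were higher and 6.26% lower with 8 libraries, and 12.7% and 8.85% with 6. DESeq2 called 0 with 8 libraries and 4 lower with 6 (1.83% of all genes). Leaving out single libraries gave 3 to 11 lower with 8. With 6 libraries, the median was 0.02 with 1 lower when Week 1 rat 2 was left out, and -0.66 with 31 lower when Week 1 rat 4 was left out. Igf2, a growth factor of the fetal and young animal, gave a log2 fold change of -0.36 ± 0.43 and -0.43 ± 0.39.

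Most proliferation genes overlapped between the weeks. Mki67, a nuclear protein of cycling cells, was at 21.0, 36.6, 117 and 46.2 CPM at Week 1 and 111, 51.1, 44.9 and 78.0 CPM at Week 3 (0.34 ± 0.48 and 0.78 ± 0.36), and the highest level of all was in Week 1 rat 3. Top2a, the topoisomerase that untangles replicated DNA, was at 31.9, 37.9, 114 and 43.1 CPM and 66.8, 35.9, 34.2 and 51.2 CPM and overlapped. Over 66 genes that act in mitosis or its onset the median was -0.17 with 8 libraries and 0.08 with 6, with 0 higher and 4 lower at unadjusted p below 0.05 and 1.5-fold with 8, and 3 and 4 with 6. Of named genes, 4.52% were higher and 6.26% lower with 8 libraries, and 12.7% and 8.85% with 6. Without overlap, 0 of the 66 lay above and 5 below with 8 libraries (5.35% and 3.73% of named genes). With 6 libraries 8 lay above and 5 below (729 and 495 of 3275 named genes).

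The circadian clock was examined because the hour of death is known to shift many lung transcripts. Per2, a repressor of the clock, was at 23.3, 63.4, 40.2 and 31.8 CPM at Week 1 and 34.7, 68.2, 45.2 and 29.1 CPM at Week 3. Clock, its activator, was at 60.5, 91.5, 304 and 145 CPM and 171, 193, 214 and 168 CPM (0.28 ± 0.41 and 0.65 ± 0.24). The groups overlapped for both. Nr1d2, which encodes the receptor REV-ERB beta, was at 5.91, 19.3, 46.3 and 34.4 CPM and 42.0, 32.2, 40.7 and 48.8 CPM (0.60 ± 0.48 and 0.60 ± 0.28), and the output factor Tef was at 52.1, 108, 98.4 and 108 CPM and 111, 117, 152 and 93.1 CPM. Both overlapped as well, with Week 1 rat 1 at the lowest level. The repressor Cry1 gave 0.31 ± 0.33 and 0.23 ± 0.32. Over 7 tested clock genes the median log2 fold change was 0.31 with 8 libraries and 0.36 with 6. Of the 7, 7 and 6 were positive (1646 of 3274 and 1855 of 3275 named genes). At unadjusted p below 0.05 and 1.5-fold, 0 were higher or lower with 8 libraries (4.52% and 6.26% of named genes). With 6 libraries 1 was higher and 0 lower (12.7% and 8.85%). Of 21 listed clock genes these 7 were the ones with a symbol in the table.

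**Figure D5:**
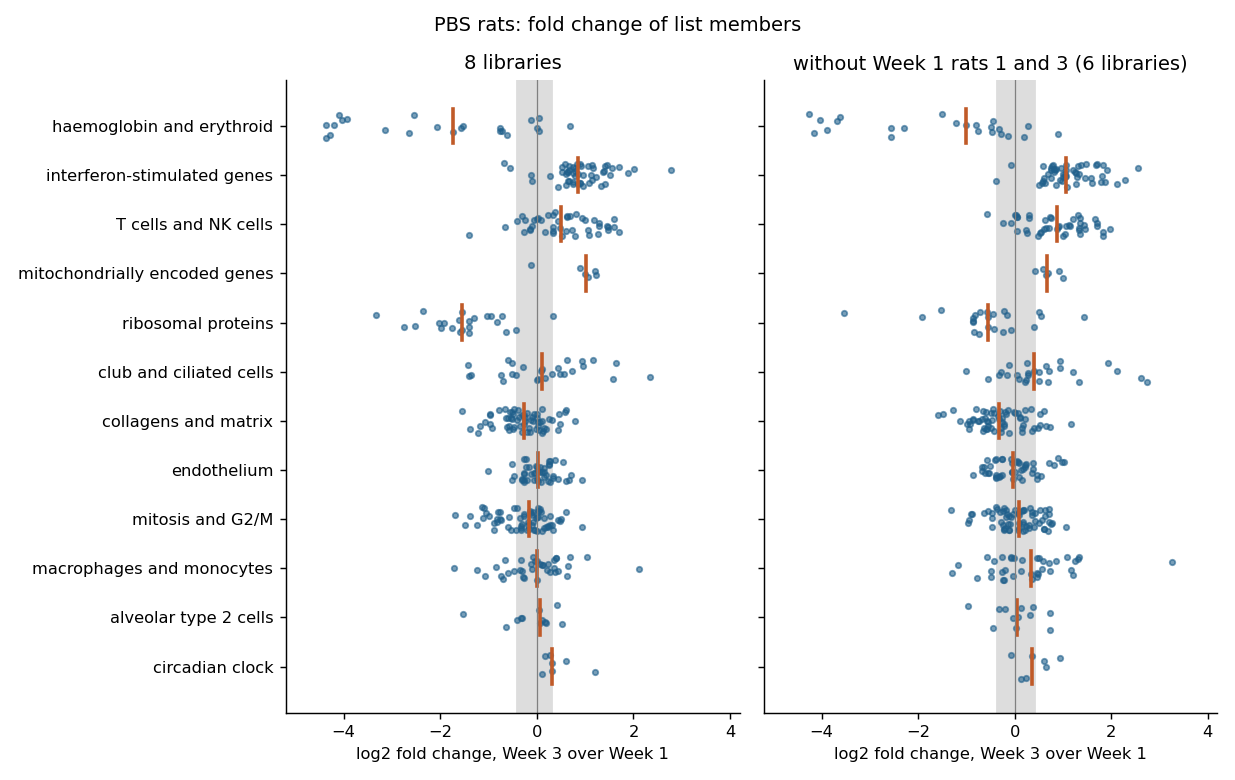
Log2 fold change, Week 3 over Week 1, of the members of the gene lists in PBS rats, with 8 libraries (left) and without Week 1 rats 1 and 3 (right). Each point is a gene and each bar a list median. The erythroid list has a median of -1.74 and -1.02 and the interferon-stimulated list of 0.86 and 1.06.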

How the data were processed

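Lung poly-A RNA of 24 male rats was sequenced, 1 library per rat, after a strand-marking kit. Per the labels, the authors aligned reads with HISAT2 2.0.5, counted them per gene with featureCounts 2.0.3 and used DESeq2 1.32.0. The deposited values are raw counts, with gene coordinates that follow Rnor_6.0 (the annotation release and the strand setting of the counting are not given in the sources used here, so antisense and overlapping genes are uncertain). Symbols came from a supplementary table of the study and covered 3275 of 32883 genes. The study's tables of rat genes list genes that differed between MCT and PBS rats, so named genes were selected with these same libraries. Promoter windows came from RefSeq (GRCr8) and were matched by symbol.

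Groups followed the labels. Genes passing edgeR's filterByExpr were scaled by TMM and tested with edgeR 4.0.16 quasi-likelihood fits in R 4.3.3, with Benjamini-Hochberg adjustment, and called at adjusted p below 0.05 and fold above 1.5. The difference of changes between MCT and PBS rats was judged by adjusted p below 0.05 alone, without a fold limit. DESeq2 1.42.0 and limma 3.58.1 (voom) were alternatives, beside other normalizations, filters, thinning, a replicate block, fits with more libraries and leaving out each library. Library totals ran from 19804731 to 32642625 counts in the PBS rats compared, and a low total limits precision for genes with few counts. CPM are counts per 1000000 counts of a library. Single library measures were tested with exact permutations (70 assignments). Fits were tested on simulated data. No pair of libraries within a group was identical. The text names 22 genes whatever their values and would have named called genes (none), and others are said to be chosen after their values were seen. The members, the 31 gene lists and the rule were chosen with earlier results of these data known. Some members of the lists are not reported here by name.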

Additional observations from a re-analysis of the deposited data

Results flagged for a closer look

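Some rats lay far from the other 3 of their group by Dixon's ratio, the gap to the nearest rat divided by the group's range, which was compared with its 95% critical value for 4 samples. Among 104 gene groups and 10 groups of library measures, 11 passed, and chance passes about 1 in 20. In Week 1, rat 3 was highest for Top2a (ratio 0.864, 114 CPM) and Bpgm (0.885, 107 CPM). Rat 1 was highest for S100a9 (0.863, 396 CPM) and Rps15 (0.838, 2399 CPM). Rat 2 was highest for Tmcc2 (0.959, 332 CPM) and Col1a1 (0.843, 1395 CPM) and lowest for Cyp2a3 (0.843, 2.51 CPM). In Week 3, rat 3 was lowest for Cdh5 (0.865, 725 CPM) and Bpgm (0.835, 17.9 CPM). Rat 4 was highest for Igtp (0.844, 139 CPM) and Cyp2f4 (0.955, 97.1 CPM).

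The change from Week 1 to Week 3 differed between MCT and PBS rats for 8 of the 52 genes named in the text (edgeR, 16 libraries, adjusted p below 0.05 over all genes). Of all 16810 genes tested, 45 passed upward (0.268%) and 102 downward (0.607%), and 29 and 97 of these had a symbol. Many of the 52 were chosen after their values had been seen. Symbols came from a study whose tables list genes that differed between MCT and PBS rats. The count of 8 is therefore a description of selected genes. On the log2 scale, MCT minus PBS, the difference was -5.29 for Cyp1a1, -1.43 for Sema3g, -1.89 for Hpgd, 3.80 for Pf4, -2.07 for Il2rb, -2.56 for Tek, -1.73 for Gbp5 and -1.29 for Trim21. Without PBS Week 1 rats 1 and 3 (14 libraries) Gbp5 gave -1.71 ± 0.32 (adjusted p = 0.00831) and Trim21 -1.15 ± 0.25 (adjusted p = 0.0134). The PBS values in each rat stand in the report.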

How the results depend on the processing

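For PBS Week 3 against Week 1 with 8 libraries the count of called genes was 0 in edgeR, also when any 1 library was left out (range 0 to 0), with the replicate block (0), with RLE size factors, other filters, robust dispersion, thinning and limma-voom. It was 38 with DESeq2, 525 with all 24 libraries in the fit and 779 at unadjusted p. With 6 libraries the count was 0, but 12 without a filter on low counts, 652 with DESeq2, 1864 with 22 libraries in the fit, 2200 at unadjusted p, and 0 to 2322 when 1 library was left out. The 2322 came without Week 1 rat 4 and the count was 2 without Week 1 rat 2, and in both fits the lone Week 1 rat was assumed to vary like the Week 3 rats. The replicate block gave 121 genes (88 higher, 33 lower) with 6 libraries. The labels give the rats only a shared number. The same-numbered deviations correlated at 0.13, 0.20, 0.17 and 0.04, so not every pair was above 0.1 and the fit without the block was kept, but Week 1 rats 1, 2 and 3 each correlated best with the Week 3 rat of their own number, a hint of pairing from the data and not the design. The MCT count of 2800 stayed within 1.5 times under every alternative (2144 to 3504, 2510 with the replicate block). The count of genes whose change differed between MCT and PBS rats, taken without a fold limit, was 147. It was 708 by DESeq2, 67 with the replicate block, 2463 at unadjusted p and 2187 without PBS Week 1 rats 1 and 3. When 1 library was left out, it was 13 (without MCT Week 1 rat 2) to 2649 (without PBS Week 1 rat 3). Why these counts moved was not tested.

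Without PBS Week 1 rats 1 and 3 the Week 3 minus Week 1 difference in total counts went from 3540400 to -2202260 and that in genes with at least 10 counts from 1123 to -36.8, and the haemoglobin share from -0.780 to -0.709 percentage points. Of 1292 gene values under alternatives, 0 changed sign, 1163 kept their side of the threshold and 129 were called, 39 of them by DESeq2, 28 and 20 in the fits of 22 and 24 libraries, 26 without Week 1 rat 4, 14 with the replicate block and 2 without a filter. Depth limits low genes most in the 2 shallow libraries. With 4 rats a week and a wide spread at Week 1, the absence of calls does not show that the weeks were alike.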

Other observations

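The lists not described above are given with 8 libraries and then without Week 1 rats 1 and 3. Counts are of genes at edgeR unadjusted p below 0.05 and 1.5-fold, where 1.67% of all genes were higher and 3.30% lower with 8 libraries and 6.62% and 6.64% with 6. Of named genes, 4.52% were higher and 6.26% lower with 8 libraries, and 12.7% and 8.85% with 6. Chromatin enzymes, which write, erase and read histone marks, gave a median log2 fold change of 0.28 and 0.50 over 24 genes, with 1 and 6 higher and 0 lower in either set. All Week 3 rats lay above all Week 1 rats for 4 of them with 8 libraries and for 15 with 6, where 3.63% and 14.6% of all genes did. Antigen presentation had a median of 0.25 and 0.29 over 19 genes, with 4 higher and 0 lower, and 3 and 1 with 6. Mast cell genes had a median of -0.02 and 0.54 over 9 genes, with 1 and 2 higher and 0 lower. Drug and xenobiotic metabolism had a median of 0.01 and 0.11 over 38 genes, with 4 higher and 1 lower in either set. DNA replication and S phase had a median of -0.11 and 0.13 over 46 genes, with 0 higher and 1 lower, and 2 and 0 with 6.

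Genes of muscle and fat had medians below 0 in both sets. Smooth muscle and pericytes had -0.18 and -0.25 over 21 genes, with 1 higher and 1 lower, but 1 and 5 with 6 libraries. Cardiac and skeletal muscle had -0.16 and -0.14 over 8 genes, with 0 higher and 1 lower, and 1 and 1 with 6. Adipocytes and lipid storage had -0.24 and -0.27 over 11 genes, with 0 higher in either set and 1 and 2 lower. Hypoxia and glycolysis genes had -0.32 and -0.30 over 13 genes, with 0 higher and 1 and 2 lower. Growth factors of the IGF axis had -0.05 and -0.15 over 22 genes, with 0 higher and 2 lower, and 1 and 2 with 6. Cholesterol and fatty acid synthesis had -0.26 and -0.24 over 11 genes, with 0 higher and 2 lower, and 0 and 0 with 6. Genes that answer glucocorticoids had 0.18 and 0.37 over 9 genes, with 0 higher or lower in either set. Immediate early and stress genes had -0.20 and -0.14 over 13 genes, with 0 higher or lower, and 0 and 2 with 6. Heat and cold shock genes had -0.0025 and 0.11 over 13 genes, with 0 higher and 1 lower, and 1 and 0 with 6. Mesothelium, airway nerve and cartilage genes had 0.22 and 0.33 over 6 genes, with 1 higher and 0 lower in either set.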
